A study of Mus musculus with 6 samples.

Results

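Transcripts of 8 genes that act in meiotic crossover formation were examined in leptotene/zygotene (L/Z) spermatocytes that lacked or carried Eef1g, the gene of the gamma subunit of the elongation factor eEF1, which serves translation. The genes were taken by symbol from a table of 54532 genes and cover the helicase Hfm1, the MutS homologues Msh4 and Msh5, the ZMM protein gene Tex11, the ligase genes Rnf212 and Ccnb1ip1 (also called Hei10), the MutL homologue Mlh3 and the nuclease subunit gene Mus81. All 8 were found in the table, and 7 passed the filter on low counts. There were 3 libraries of control mice, which the labels call wild type and the study describes as littermates, and 3 libraries of Eef1g-cKO mice. In the Eef1g-cKO mice, floxed Eef1g on a C57BL/6J background was deleted in male germ cells by Cre expressed under Stra8 (Stra8-GFPCre). The study gives recombination as starting in spermatogonia, before the sorted stages, so somatic cells of the testis kept the gene. The alleles carried by the controls are not stated beyond the label. Cells of both genotypes came from testes at 12 dpp (days postpartum) and were sorted by flow cytometry after staining with a Hoechst dye, and their polyadenylated RNA was amplified as full-length cDNA. The labels do not say whether the 3 libraries of a genotype came from separate or pooled animals, so p-values measure only the spread between these libraries.

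In meiotic prophase, programmed DNA breaks are repaired from the homologous chromosome, and some of the repair intermediates mature into crossovers, which hold the homologues together until they separate. Most mammalian crossovers are made by the ZMM pathway: HFM1 and the MSH4-MSH5 heterodimer (MutSγ) form and hold the joint molecules, TEX11 and SHOC1-SPO16 act beside them, RNF212 and HEI10 sort the sites that are retained from those that are released, and an endonuclease that contains MLH3 cuts the joint molecules at the end. MUS81 with EME1 resolves a minority of crossovers outside this pathway. Leptotene and zygotene are the stages at which the ZMM proteins load, whereas MLH3 foci appear in pachytene.

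Library totals ran from 763133 reads in Eef1g-cKO replicate 3 to 2617648 in Eef1g-cKO replicate 2, and 3 reads, used here as the detection floor, corresponded to 1.18 to 4.63 CPM. CPM is the number of reads of a gene per 1000000 reads of the library, after TMM scaling of the library sizes. Eef1g itself was at 222, 226 and 212 CPM in the controls and at 139, 151 and 119 CPM in Eef1g-cKO, with no overlap, although exons outside the deleted ones are still counted. Summed markers of L/Z spermatocytes (10 genes, Sycp1 the most abundant) ran from 9834 to 11280 CPM in the controls and from 21240 to 28190 CPM in Eef1g-cKO, and summed spermatogonia markers (12 genes, Dmrt1 the most abundant) from 1512 to 1740 and from 705 to 844 CPM. The labelled cell type was therefore met by its markers in all 6 libraries, at unequal levels in the genotypes. In such samples, fewer cells of a type and less RNA per cell cannot be told apart.

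To compare crossover gene transcripts between the genotypes, edgeR's quasi-likelihood test was fitted over the 8513 genes that passed the filter, with Benjamini-Hochberg adjustment over all of them. Hfm1, Msh4 and Tex11 rose in Eef1g-cKO, by 3.24-fold, 2.93-fold and 1.89-fold on the CPM scale, whereas relative to L/Z marker reads Hfm1 alone was called higher, Msh5 and Mlh3 were called lower, as 61.2% of all tested genes were, and Tex11 and Ccnb1ip1 had log2 fold changes below 0. Rnf212 and Ccnb1ip1 had higher mean CPM in Eef1g-cKO without passing the test, Msh5 and Mlh3 had log2 fold changes below 0 whose intervals spanned 0, and Mus81 was too low to be tested. Thus 3 of the 7 tested genes were called higher, where 7.80% of all tested genes were, and 0 were called lower, where 6.01% of all tested genes were. Of the 3, Hfm1 and Msh4 also exceeded a log2 fold change of 1, as did 3.42% of all tested genes. At an unadjusted p under 0.05, 5 of the 7 were higher (14.3% of all tested genes were) and 0 lower (13.2% of all tested genes were). When all genes were used to scale the libraries, DESeq2 and limma-voom also called 0 of the 7 lower. They called 612 and 687 of the 8513 genes lower, so with 7 genes a count of 0 lay near that background. The median log2 fold change was 0.91 over the 7 genes and -0.05 over all genes tested. CPM values of 4 of the 7 genes, Hfm1, Msh4, Tex11 and Rnf212, were higher in every Eef1g-cKO library than in every control library, against 16.4% of all tested genes.

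**Figure D1:**
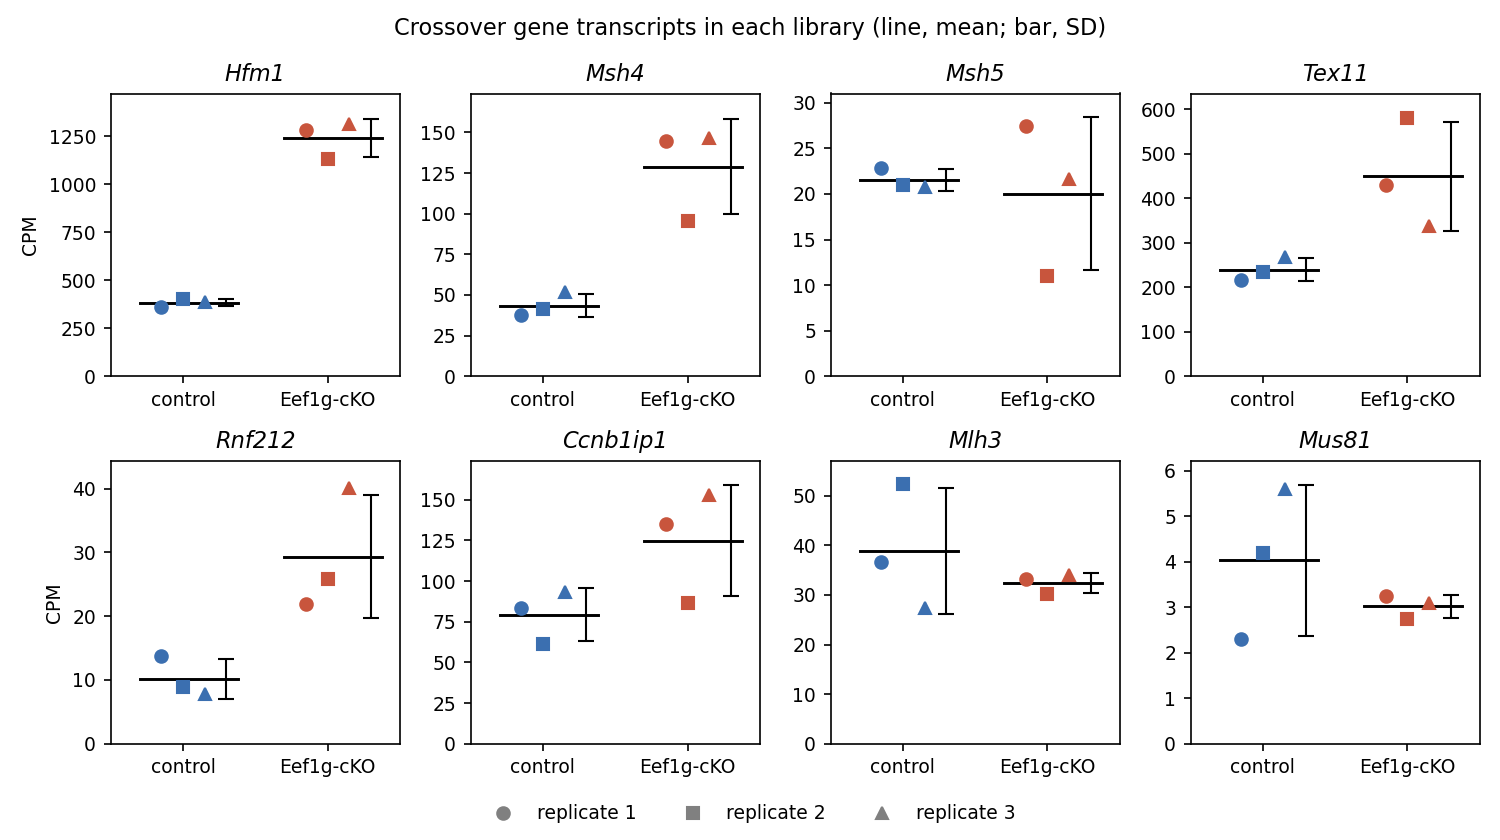
CPM (y axes, linear, each from 0) of the 8 crossover genes in the 3 control and 3 Eef1g-cKO libraries; each point is 1 library, its shape gives the replicate number, the line is the mean and the bar the SD. The groups are separate for Hfm1, Msh4, Tex11 and Rnf212, and overlap for Msh5, Ccnb1ip1, Mlh3 and Mus81.

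Hfm1 (ENSMUSG00000043410, chr5:106840192-106926321, minus strand, GRCm38) encodes a DNA helicase needed for joint molecule formation. Its reads numbered 475, 766 and 687 in control replicates 1 to 3 and 1588, 2885 and 851 in Eef1g-cKO replicates 1 to 3, or 363, 402 and 385 CPM against 1284, 1131 and 1314 CPM. All 3 Eef1g-cKO libraries stood far above the controls, and the spread within either genotype was small beside the difference. The mean rose from 383 ± 19.8 CPM (SD, n = 3) to 1243 ± 98.3 CPM (SD, n = 3). The log2 fold change was 1.70 (SE 0.15, 95% interval 1.39 to 2.01, edgeR adjusted p = 1.34e-06). Hfm1 also kept this call when any 1 library was left out, with values of 1.67 to 1.78.

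Msh4 (ENSMUSG00000005493, chr3:153857149-153906138, minus strand) and Msh5 (ENSMUSG00000007035, chr17:35028605-35046745, minus strand) encode the partners of MutSγ, which work as a heterodimer that clamps onto recombination intermediates. Msh4 had 49, 79 and 92 reads in the controls and 179, 243 and 95 in Eef1g-cKO, or 37.4, 41.5 and 51.5 CPM against 145, 95.3 and 147 CPM. The lowest Eef1g-cKO value, in replicate 2, was still above the highest control. On the log2 scale Msh4 differed by 1.55 (SE 0.29, 95% interval 0.95 to 2.16, edgeR adjusted p = 0.00149). Msh5 had 30, 40 and 37 reads in the controls and 34, 28 and 14 in Eef1g-cKO, or 22.9, 21.0 and 20.7 CPM against 27.5, 11 and 21.6 CPM. Its controls lay close together, and Eef1g-cKO replicates 1 and 2 lay on either side of them. The log2 fold change of Msh5 was -0.13, with a 95% interval from -1.21 to 0.95 (edgeR adjusted p = 0.90), so that a fold between 0.431 and 1.94 could not be told from no change at this depth. Without Eef1g-cKO replicate 2 the value was 0.22.

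The ratio of Msh4 to Msh5 reads within a library needs no scaling between libraries. It was 1.62, 1.96 and 2.47 in the controls and 5.20, 8.54 and 6.59 in Eef1g-cKO. Every Eef1g-cKO library had a higher ratio than every control library. The mean log2 ratio was 1.74 higher in Eef1g-cKO (exact 2-sided permutation p = 0.1, the smallest that 3 against 3 libraries can give; 0.2 after adjustment over the 2 ratios tested), and leaving out any 1 library gave differences of 1.56 to 1.92.

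**Figure D2:**
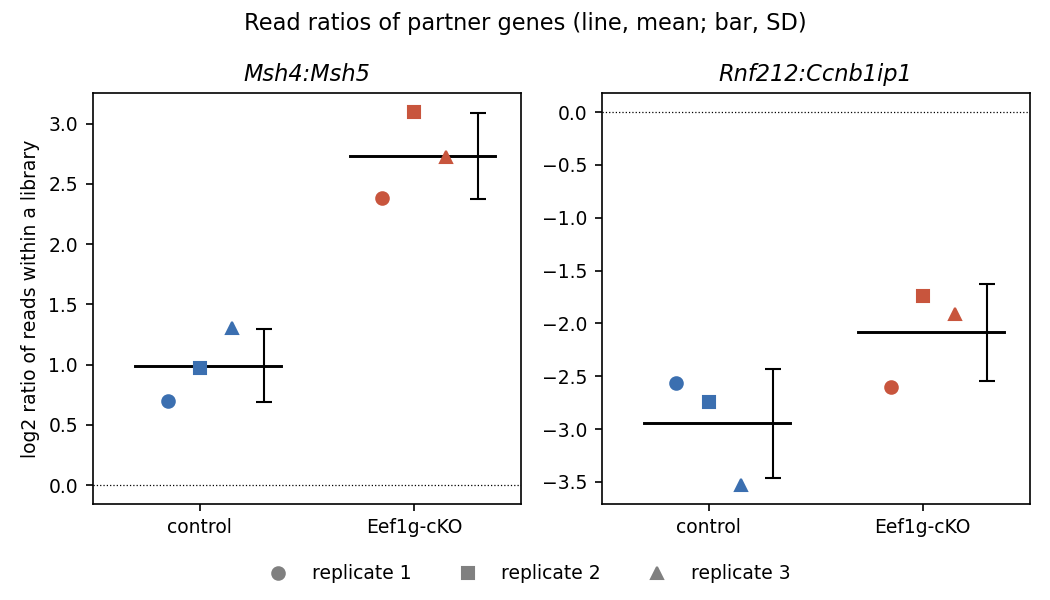
Log2 ratio of reads of partner genes within a library (y axes) for Msh4 to Msh5 and Rnf212 to Ccnb1ip1; each point is 1 library, the line is the mean, the bar the SD, and the dotted line marks equal reads. The genotypes are separate for Msh4 to Msh5 and overlap for Rnf212 to Ccnb1ip1.

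Because Hfm1, Msh4 and Msh5 belong to 1 branch of the pathway and Hfm1 and Msh4 were called higher while Msh5 was not, their promoter sequences are shown side by side, from 250 bases before the RefSeq transcription start to 30 bases after it (GRCm38.p6, minus strand). Capitals mark matches, on either strand, to CNCCTCAG, a motif given for the meiotic initiators STRA8 and MEIOSIN, and to GCATGCG, an NRF1-type motif whose matches on opposite strands can overlap.
Hfm1, chr5:106925861-106926140: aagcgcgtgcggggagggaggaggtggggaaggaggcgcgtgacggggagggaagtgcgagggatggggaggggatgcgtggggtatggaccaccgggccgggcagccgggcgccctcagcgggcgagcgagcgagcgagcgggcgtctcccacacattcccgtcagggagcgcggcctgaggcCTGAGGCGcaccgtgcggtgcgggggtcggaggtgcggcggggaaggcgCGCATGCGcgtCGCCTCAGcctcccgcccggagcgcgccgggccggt
Msh4, chr3:153904862-153905141: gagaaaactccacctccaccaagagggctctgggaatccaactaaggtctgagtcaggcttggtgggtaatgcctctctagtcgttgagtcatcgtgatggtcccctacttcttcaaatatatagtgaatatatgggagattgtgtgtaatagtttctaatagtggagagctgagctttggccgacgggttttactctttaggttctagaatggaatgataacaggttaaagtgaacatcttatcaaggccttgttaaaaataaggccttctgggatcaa
Msh5, chr17:35046593-35046872: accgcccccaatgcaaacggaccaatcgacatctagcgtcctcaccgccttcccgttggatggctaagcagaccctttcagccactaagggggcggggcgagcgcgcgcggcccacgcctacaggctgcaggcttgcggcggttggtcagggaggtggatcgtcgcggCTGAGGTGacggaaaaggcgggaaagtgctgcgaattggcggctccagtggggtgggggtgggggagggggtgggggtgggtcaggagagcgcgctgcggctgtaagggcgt

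In the Hfm1 promoter, CNCCTCAG matched on the reverse strand at position -66 from the start site and on the forward strand at -6, and GCATGCG matched on both strands at -17 and -16. The Msh5 promoter held 1 match to CNCCTCAG, on the reverse strand at -82, and the Msh4 promoter held none to either motif. The RefSeq start sites lay inside the genes as the table gives them by 431 bases for Hfm1, 1247 for Msh4, 123 for Msh5 and 12004 for Ccnb1ip1, and within 45 bases of the table's start for Rnf212, Mlh3 and Mus81, so these windows need not be the promoters used in the cells. Promoter windows of 300 bases (to 50 bases past the start) were found for 7 of the 8 genes, all but Tex11, and 7.94% of 32851 such promoters held CNCCTCAG and 3.58% held GCATGCG. Of the other promoters of the 8 genes, those of Rnf212, Ccnb1ip1 and Mlh3 held GCATGCG and none held CNCCTCAG. Of 3 further motifs searched, CACGTG (an E-box, in 7.15% of all promoters) matched only in Rnf212, and GGCAGTT (MYB type, 4.12%) and TTTGGCG (E2F type, 1.56%) matched in none of them. The Hfm1 and Msh5 windows were rich in GC, at 75.3% and 67.3%, with 41 and 27 CpG dinucleotides, whereas that of Msh4 had 43.3% GC and 6 CpG, beside medians of 52.7% and 7.0 over all promoters. Hfm1 and Msh4, both called higher, thus differed in motif matches, GC content and CpG number. A motif match describes letters only and is not evidence of binding.

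Tex11 (ENSMUSG00000009670, chrX:100838648-101059667, minus strand) is an X-linked gene whose protein joins the ZMM complexes on chromosome axes. It had 284, 446 and 480 reads in the controls and 531, 1483 and 219 in Eef1g-cKO, or 217, 234 and 269 CPM against 429, 582 and 338 CPM. The groups did not overlap, but the Eef1g-cKO libraries were spread widely, with replicate 2 highest and replicate 3 lowest. The mean was 240 ± 26.4 CPM (SD, n = 3) in the controls and 450 ± 123 CPM (SD, n = 3) in Eef1g-cKO. The log2 fold change was 0.91 (SE 0.20, 95% interval 0.50 to 1.33, edgeR adjusted p = 0.00454), below the fold limit of 1, and ranged from 0.70 to 1.11 when 1 library was left out.

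Rnf212 (ENSMUSG00000055385, chr5:108729290-108774982, minus strand) encodes a SUMO ligase-like RING protein that stabilises the ZMM complexes at designated sites, and Ccnb1ip1 (ENSMUSG00000071470, chr14:50789248-50807732, minus strand) encodes HEI10, a ubiquitin ligase-like RING protein that removes them elsewhere. Rnf212 was sparse, with 18, 17 and 14 reads in the controls and 27, 66 and 26 in Eef1g-cKO, or 13.7, 8.92 and 7.84 CPM against 21.8, 25.9 and 40.2 CPM. Every Eef1g-cKO library was above every control library. For Rnf212 the log2 fold change was 1.51 with a wide error (SE 0.54, 95% interval 0.38 to 2.65, edgeR adjusted p = 0.0718), so it missed the threshold, which it passed with DESeq2 (adjusted p = 0.0421) and with limma-voom (adjusted p = 0.0462). A gene antisense to Rnf212, 1700047L14Rik, had at most 7 reads in a library, and no other gene that overlapped any of the 8 had more.

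Ccnb1ip1 had 109, 117 and 167 reads in the controls and 167, 221 and 99 in Eef1g-cKO, or 83.2, 61.4 and 93.5 CPM against 135, 86.7 and 153 CPM. Eef1g-cKO replicates 1 and 3 were above all controls, and replicate 2 lay among them. For Ccnb1ip1 the log2 fold change was 0.64 (SE 0.28, 95% interval 0.05 to 1.22, edgeR adjusted p = 0.145), and without Eef1g-cKO replicate 2 it was 0.87 (adjusted p = 0.0494). The log2 ratio of Rnf212 to Ccnb1ip1 reads was 0.86 higher in Eef1g-cKO on average, with overlapping libraries (exact 2-sided permutation p = 0.2, adjusted 0.2).

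Mlh3 (ENSMUSG00000021245, chr12:85234520-85270599, minus strand) encodes an endonuclease subunit that acts late in crossover formation. It had 48, 100 and 49 reads in the controls and 41, 77 and 22 in Eef1g-cKO, or 36.6, 52.5 and 27.4 CPM against 33.2, 30.2 and 34.0 CPM. The Eef1g-cKO libraries lay within the range of the controls, whose spread came mostly from the high replicate 2. The log2 fold change was -0.27 (SE 0.39, 95% interval -1.09 to 0.55, edgeR adjusted p = 0.706), and 0.02 without control replicate 2.

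Mus81 (ENSMUSG00000024906, chr19:5482345-5488402, minus strand), the structure-specific endonuclease subunit of the pathway outside the ZMM proteins, was near the detection floor, with 3, 8 and 10 reads in the controls and 4, 7 and 2 in Eef1g-cKO. The 2.29, 4.2 and 5.6 CPM of the controls and the 3.24, 2.75 and 3.09 CPM of Eef1g-cKO overlapped. With no filter on low counts its log2 fold change was -0.39, and the 95% interval from -3.05 to 2.28 left a change in either direction undetectable at this depth. Its partner Eme1 had 10, 2 and 2 reads in the controls and 0, 2 and 0 in Eef1g-cKO. The ratio of Hfm1 to Mus81 was not tested, since Mus81 was at or under 3 reads in some libraries.

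Levels of different genes were compared as CPM per kilobase of the gene length given in the table. That length exceeded the longest annotated transcript of each gene by unequal amounts. It was 6895 against 3325 bases for Msh4, 5526 against 2886 for Msh5 and 3624 against 3278 for Tex11. The order of genes at similar levels can therefore depend on the length used. In the controls Tex11 (mean 66.2) and Hfm1 (57.3) were highest and overlapped between libraries, followed by Ccnb1ip1 (42.2), which stood apart from both neighbours. Msh4 (6.30), Rnf212 (6.17), Mlh3 (5.14) and Msh5 (3.90) formed a lower series in which each gene overlapped the next, and Mus81 (1.13) was below them. In Eef1g-cKO Hfm1 (186) stood above Tex11 (124) with no overlap, Ccnb1ip1 (66.3) again came next, Msh4 (18.7) and Rnf212 (17.8) overlapped and stood apart from Mlh3 (4.30) and Msh5 (3.63), and Mus81 (0.847) was last. The ZMM genes thus covered a wide range of levels in both genotypes, with MutSγ transcripts well below those of Hfm1 and Tex11.

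The other genes of the crossover pathway, 21 in all, were taken from a list by role: the ZMM partners Shoc1 and Spo16, regulators of crossover designation, nucleases, and the BLM and FANCM groups that dissolve joint molecules. Of these, 14 could be tested, 1 was called higher (7.80% of all genes were) and 0 lower (6.01% of all genes were). At an unadjusted p under 0.05, 3 were higher (14.3% of all genes) and 0 lower (13.2% of all genes). DESeq2 and limma-voom also called 0 of the 14 lower, where they called 612 and 687 of all 8513 genes lower. Their median log2 fold change was 0.11. The gene called higher was Spo16, the partner of SHOC1, at 58.8, 94.0 and 47.6 CPM in the controls and 220, 162 and 212 CPM in Eef1g-cKO, with no overlap (log2 fold change 1.56, SE 0.27, edgeR adjusted p = 0.000867). The next by level did not pass: Fignl1, an anti-crossover ATPase, was at 0.50 on the log2 scale (adjusted p = 0.115), Cdk2, a kinase found at crossover sites, 0.25 (adjusted p = 0.422), and Exo1, an exonuclease that also acts in crossover formation, -0.61 (adjusted p = 0.247). The helicase gene Blm was at 0.53 (adjusted p = 0.234) and the resolvase gene Gen1 at 0.16 (adjusted p = 0.779). Shoc1, named here after its values were seen as the partner of Spo16, had 15, 58 and 35 reads in the controls and 50, 184 and 19 in Eef1g-cKO, and its log2 fold change of 1.22 did not pass (adjusted p = 0.0823).

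**Figure D3:**
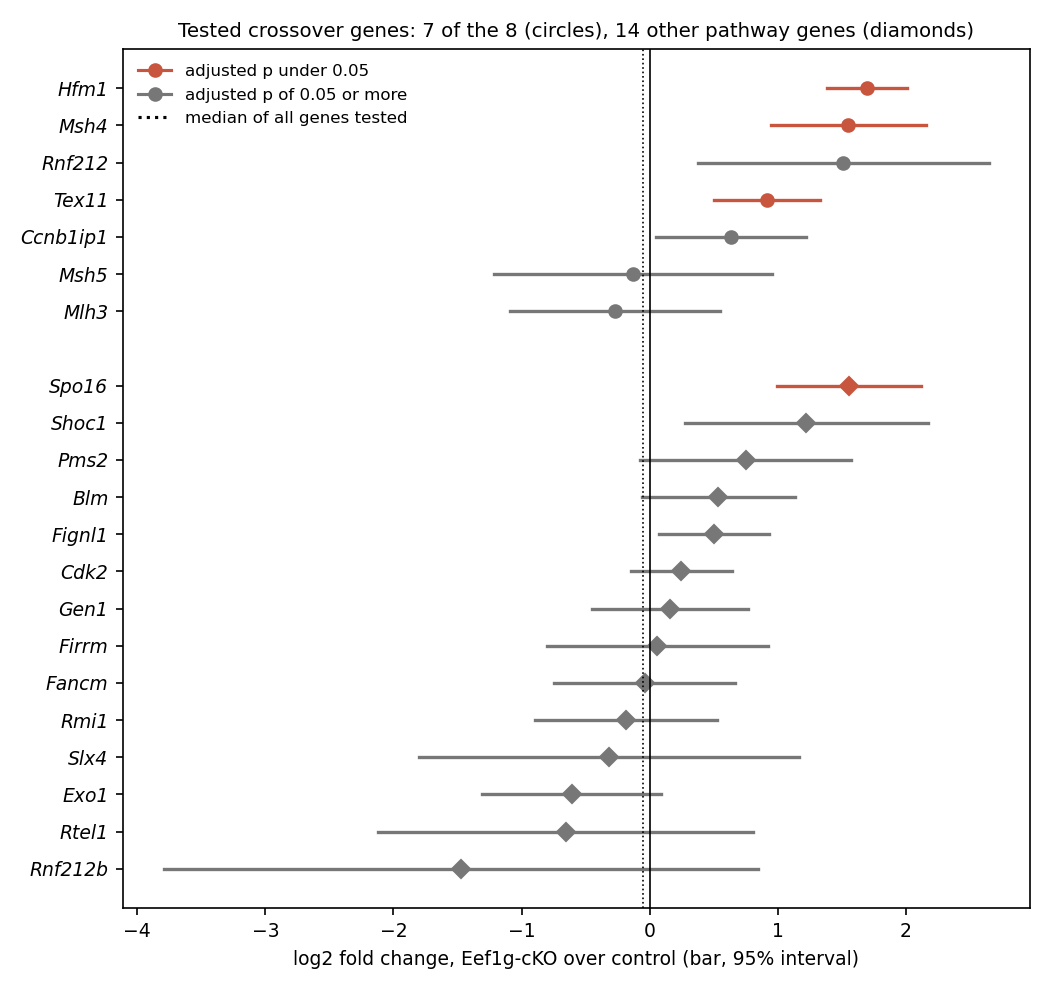
Log2 fold change of Eef1g-cKO over control (x axis) with its 95% interval for the 7 tested crossover genes (circles) and 14 other tested genes of the pathway (diamonds), from edgeR; red marks an adjusted p under 0.05 and the dotted line the median of all genes tested, -0.05. Red points are Hfm1, Msh4, Tex11 and Spo16, all above 0, and the intervals of sparse genes such as Rnf212b and Slx4 are wide.

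The 7 tested genes did not follow 1 common pattern over the 6 libraries. Pearson's r of log2 CPM with the mean of the 7 z-scored genes, which includes the gene itself and the difference between genotypes, was 0.96 for Msh4, 0.94 for Hfm1, 0.87 for Rnf212, 0.84 for Ccnb1ip1 and 0.62 for Tex11, but 0.15 for Msh5 and -0.18 for Mlh3. Among all other tested genes, those most like the mean were Top2b (r = 0.99), which encodes a DNA topoisomerase, Efr3a (r = 0.99) and Trim37 (r = 0.99). Their log2 fold changes were 0.73 (edgeR adjusted p = 0.0209), 0.93 (adjusted p = 0.00121) and 0.74 (adjusted p = 0.0616). With 6 libraries that share the same scaling and the same genotype split, these values only describe likeness.

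Most tested markers of the sorted cell type were, like Hfm1, Msh4 and Tex11, higher in Eef1g-cKO. Of the 10 L/Z markers, 9 were tested, 6 of them were higher and 0 lower in Eef1g-cKO, and none was at 0 in all libraries. Meiob (log2 fold change 0.06), Spo11 (0.07) and Prdm9 (0.84, edgeR adjusted p = 0.137) were not called, and Rec8 was too low to be tested. Of the 12 spermatogonia markers, 6 were tested and 5 of them were lower. Summed pachytene and later markers (11 genes) ran from 73.5 to 100 CPM in the controls and from 115 to 157 CPM in Eef1g-cKO. Of these, 3 were tested, Mybl1 was higher and Piwil1 lower, and Adam3 and Acrv1 were at 0. Mybl1 had means of 49.4 CPM in the controls and 130 CPM in Eef1g-cKO, where the list had 86.9 and 139 CPM. Piwil1 had 18.1 and 0.131 CPM. The higher sum therefore came from Mybl1 and not from the list as a whole. Sertoli cell markers (7 genes, 4 tested, 2 lower) summed to 78.6 to 278 CPM in the controls and 1.55 to 45.3 CPM in Eef1g-cKO, and peritubular and stromal markers (5 genes, 3 tested, 3 lower) to 103 to 205 and 10.8 to 42.3 CPM. Leydig cell markers (5 genes, 0 passed the filter for testing, Hsd3b1 and Cyp17a1 at 0) summed to 8.40 to 10.7 and 1.57 to 6.47 CPM, and blood cell markers (5 genes, 1 tested, 0 called, Csf1r and Cd68 at 0) overlapped, at 5.6 to 74.8 and 3.24 to 75.7 CPM. Their part in the CPM differences of the crossover genes was not tested.

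**Figure D4:**
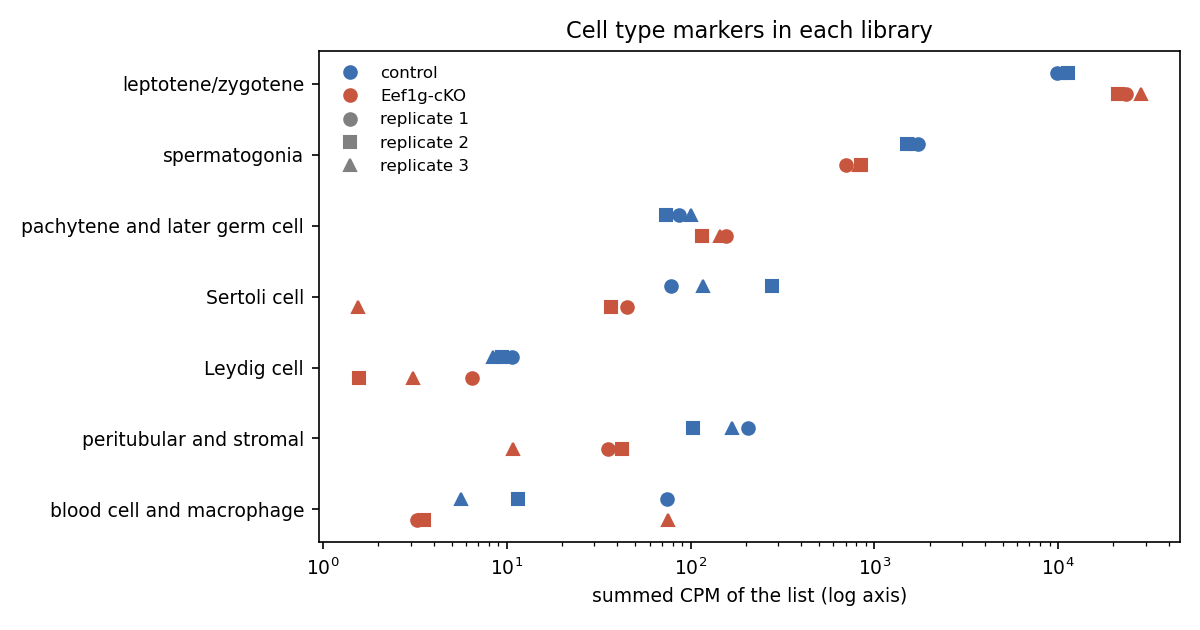
Summed CPM of 7 cell type marker lists (x axis, log scale) in each library; blue points are control and red points Eef1g-cKO libraries, and the shape gives the replicate number. L/Z markers and pachytene and later markers lie higher in every Eef1g-cKO library than in every control library. Most of the pachytene and later sum in Eef1g-cKO is Mybl1. Spermatogonia, Sertoli, Leydig and peritubular markers lie lower in every Eef1g-cKO library, and the blood cell markers overlap.

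The crossover genes were therefore also related to the L/Z markers themselves, a scaling chosen after the data were seen; Sycp1 made up 40.3% to 49.7% of the marker reads. Per 1000 L/Z marker reads, Hfm1 had 36.9, 35.7 and 36.5 reads in the controls and 54.8, 53.3 and 46.6 in Eef1g-cKO. Hfm1 thus remained higher in every Eef1g-cKO library. Msh4 had 3.8, 3.68 and 4.89 reads against 6.18, 4.49 and 5.21, and Tex11 had 22.0, 20.8 and 25.5 against 18.3, 27.4 and 12.0, with overlap in both. Rnf212 had 1.4, 0.791 and 0.744 against 0.932, 1.22 and 1.43, and Ccnb1ip1 8.46, 5.45 and 8.88 against 5.77, 4.08 and 5.43. These ligase genes overlapped between genotypes as well. Msh5 had 2.33, 1.86 and 1.97 reads against 1.17, 0.517 and 0.767, and Mlh3 had 3.73, 4.65 and 2.61 against 1.42, 1.42 and 1.21. Both were lower in every Eef1g-cKO library than in every control library. The share of all tested genes that separated in this way was not computed. In the edgeR fit scaled to these markers, 61.2% of all tested genes were called lower.

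**Figure D5:**
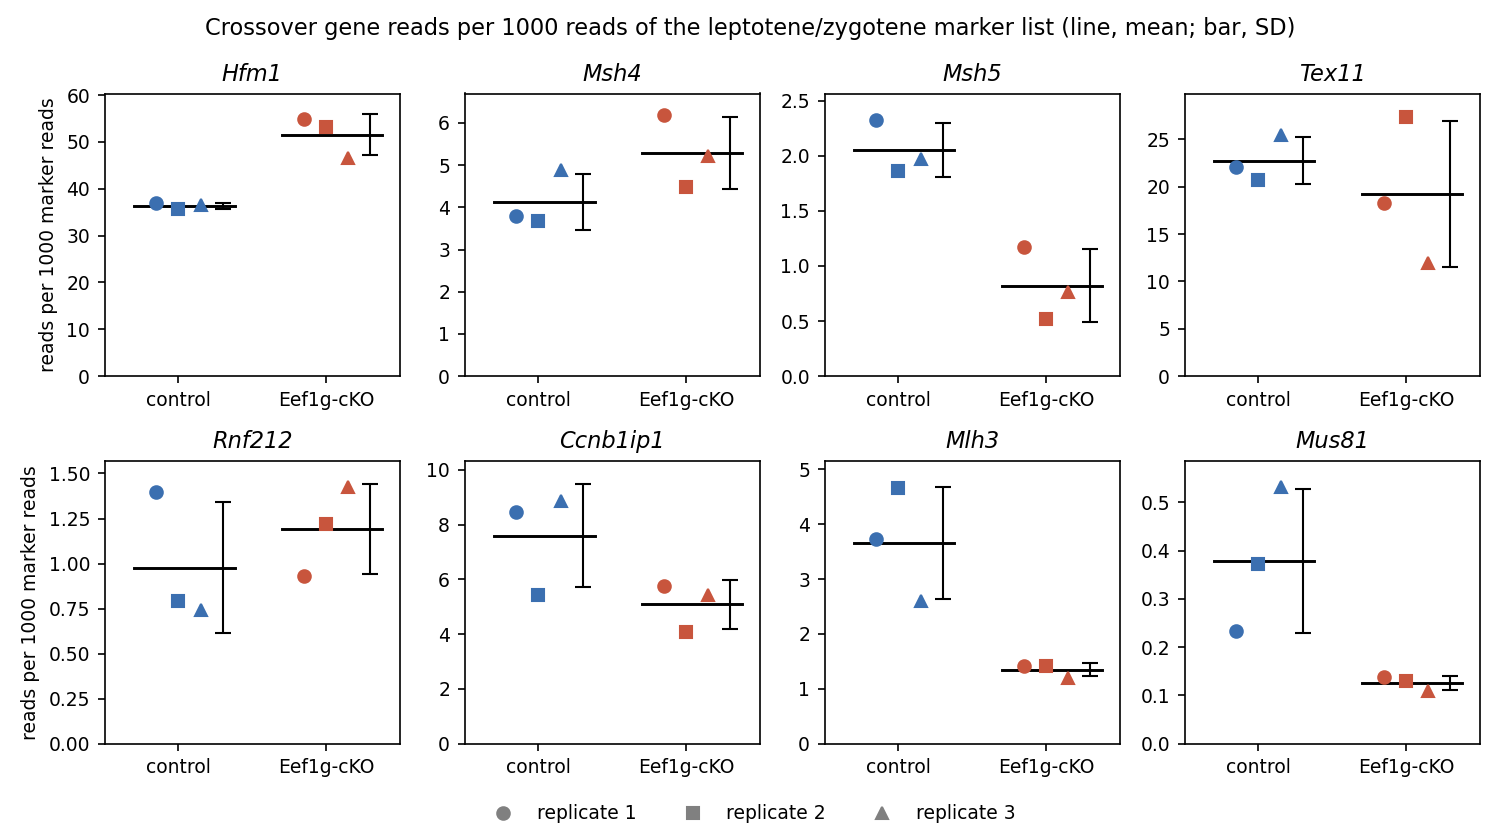
Reads of the 8 crossover genes per 1000 reads of the L/Z marker list (y axes, linear, each from 0) in each library; each point is 1 library, the line is the mean and the bar the SD. Hfm1 is higher and Msh5 and Mlh3 are lower in every Eef1g-cKO library, and Msh4, Tex11, Rnf212 and Ccnb1ip1 overlap. Mus81 also lies lower, but it was near the detection floor and was not tested. On this scale 61.2% of all tested genes were called lower.

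In the edgeR fit scaled in this way, Hfm1 was the single crossover gene called higher (log2 fold change 0.51, adjusted p = 0.0229), where 0.235% of all tested genes were. The markers themselves differed on the CPM scale, with log2 fold changes from 0.06 (Meiob) to 1.87 (Dmc1), Sycp1 at 1.04 and Hormad1 at 1.72. Hfm1, at 1.70 on that scale, thus exceeded the summed list but not each of its genes. Its call depends on how the list is weighted. Msh4 (0.36, adjusted p = 0.308), Rnf212 (0.30, adjusted p = 0.64), Tex11 (-0.24, adjusted p = 0.41) and Ccnb1ip1 (-0.58, adjusted p = 0.0954) were not called, so the calls of Msh4 and Tex11 held on the CPM scale and were lost relative to L/Z markers. Msh5 (-1.33, adjusted p = 0.0384) and Mlh3 (-1.43, adjusted p = 0.00692) were called lower, where 61.2% of all tested genes were. This scaling moved the median of all genes to -1.22, so the values of Msh5 and Mlh3 lay near that of the typical gene and those of the other 5 lay above it. Of the 14 other pathway genes tested, edgeR on this scale called 8 lower (61.2% of all tested genes were) and 0 higher (0.235% were). Spo16, at 0.38 (adjusted p = 0.242), was no longer called.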

How the data were processed

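RNA-seq libraries of sorted L/Z spermatocytes (3 control, 3 Eef1g-cKO) were analysed from the deposited raw read counts per gene. The authors filtered reads with fastp, aligned them to GRCm38 with HISAT2 and counted them with featureCounts, per their methods, and the submitters' processing notes also name DESeq2. Use of strand and the treatment of reads with several alignments are not given in the sources used here. Without molecular identifiers, PCR copies counted as reads, and the floor covers counting error only.

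Counts were tested with edgeR 4.0.16 in R 4.3.3 (robust quasi-likelihood, TMM scaling, genotype only, filterByExpr at a count of at least 10 and a total of at least 15). The 8513 genes kept held 98.1% of reads. P-values were adjusted by Benjamini-Hochberg over these genes, and a gene was called at an adjusted p under 0.05. Standard errors were computed from the log2 fold change and F. Ratios used reads plus 0.5. Fits were tested on simulated data. Library totals were 763133 to 2617648 reads, and no libraries agreed within sampling noise (chi-square per degree of freedom at least 6.37).

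The 8 genes, the pathway and marker lists and the tests were chosen with earlier results of these data known. Named genes were the 8, Eef1g, pathway genes that passed or else the highest up to 6, the 3 genes most like the 8, and the top marker of lists that moved; Shoc1, Eme1 and the antisense gene were added after their values were seen. Spo16 and Shoc1 are listed in the table as 1700028K03Rik and AI481877, matched by RefSeq synonyms. Promoters came from RefSeq. A gene of the pathway list and the ratio that used it are not reported here.

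Alternatives were DESeq2 1.42.0, limma-voom 3.58.1 with quality weights, scaling by RLE, by upper quartile or by library totals, dropping the filter or asking for 10 reads in each library, non-robust estimation, a replicate block, gene length and GC content offsets, and leaving out each library. Scaling to L/Z markers and thinning to 763133 reads were added after seeing the data.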

Additional observations from a re-analysis of the deposited data

How the results depend on the processing

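Hfm1 kept its call under all 20 alternatives (log2 fold change 0.51 to 1.87). Msh4 and Tex11 kept theirs except after scaling to L/Z marker reads, where Msh4 was 0.36 and Tex11 -0.24. The same scaling gave -0.58 for Ccnb1ip1, -1.33 for Msh5 and -1.43 for Mlh3. On that scale 1 crossover gene was called higher (0.235% of all tested genes were) and 2 lower (61.2% of all tested genes were). This scaling shifted the median of all genes by -1.17. Rnf212 passed the threshold with at least 10 reads in every library (1.36), DESeq2 (1.51), limma-voom (1.39) and a gene length offset (1.88). Ccnb1ip1 passed with a gene length offset (0.98). That offset made 5 crossover genes higher, with 1101 of the 8513 genes tested called higher, beside 664 in the main fit. Msh5 was 0.056 with a gene length and 0.42 with a GC content offset, where Msh4 was 1.72 and 1.65. The ratio of Msh4 to Msh5 reads was computed without these offsets. These offsets shifted the median of all genes by 0.18 and 0.21, library totals by -0.19, upper-quartile scaling by -0.12 and the stricter filter by -0.14. The cause of these differences was not tested. Rnf212 had too few reads to be tested in thinned libraries.

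Leaving out 1 library gave log2 fold changes of 1.67 to 1.78 for Hfm1, 1.47 to 1.75 for Msh4, 0.70 to 1.11 for Tex11, 1.28 to 1.79 for Rnf212, 0.49 to 0.87 for Ccnb1ip1, -0.44 to 0.22 for Msh5 and -0.47 to 0.0235 for Mlh3, with 3 to 4 crossover genes higher and 0 lower. Of the other pathway genes, 1 to 2 were higher (Fignl1 joined Spo16 without Eef1g-cKO replicate 2, and Shoc1 without replicate 3) and 0 to 1 lower (Exo1, without Eef1g-cKO replicate 1); limma-voom and the length offset, with or without the block, called 3 higher. With 1 library left out, genes called higher over the whole table numbered 374 to 834 and lower 238 to 668. With all libraries these were 664 and 512. Library totals gave 333 higher, limma-voom 921, the length offset 1101 and that offset with the block 873. The GC content offset gave 317 lower.

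The replicate numbers did not pair the libraries: deviations of libraries with the same number correlated at -0.04, 0.02 and -0.05, and 1 of the 3 pairs correlated best with its own number. A replicate block left 3 crossover genes higher, with 496 genes higher and 377 lower over the table, and the block with a length offset gave 288 lower and 0.96 for Ccnb1ip1, which passed with the length offset with or without the block, whereas Rnf212 passed without the block and not with it (1.84, adjusted p = 0.0603). Without the offset, the block changed no call of the 8 genes.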
